A study of Mus musculus with 59 samples.

Results

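The genes described here are 47 genes that carry the symbols of nuclear-encoded subunits of respiratory complexes II to V, followed in the brown adipose tissue (BAT) of mice given thyroid hormone (TH), kept in the cold or fed a high-fat diet (HFD). They were found by symbol among the 55341 genes listed in the count files. The symbols sought were Sdha to Sdhd, Cyc1, those that start with Uqcr or Atp5, and those that start with Cox, a digit from 4 to 8 and a letter from a to i. Of 56 matches, 7 with -ps symbols (pseudogenes) were left out, and Cox7b2 and Cox8c had a mean raw count under 10. The 47 that remained are 4 genes of complex II, 9 of complex III, 17 of complex IV and 17 of complex V. The symbol decided the membership, so Atp5s, which is related to coupling factor B and is not a subunit of the enzyme, and Cox7a2l, which takes part in the joining of complexes III and IV, are among them. So is Cox6c2, which GENCODE annotates as a processed pseudogene, while the other 46 are protein coding. All 47 passed the filter on low counts in every comparison.

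RNA-seq counts of the whole BAT were available for 59 male C57BL/6J mice of 8 to 12 weeks, 1 library per mouse, in 3 experiments. In the first, mice received propylthiouracil (PTU), which blocks the synthesis of thyroid hormone, in their food and then a single injection of T3 and T4. Wild-type (WT) mice were taken without injection or at 3, 6, 12 or 24 h (4 mice per group), and mice labelled BATKO without injection or at 24 h (5 per group). In the second, mice stayed for 24 h at 4 °C (3 CTRL and 4 BATKO) or 30 °C (4 CTRL and 5 BATKO), and in the third they received HFD for 3.5 days (4 CTRL and 3 BATKO) or chow (4 CTRL and 2 BATKO). The gene inactivated in BATKO mice, the Cre line and the relation of the CTRL mice to them are not given in the sources used here, so the targeted gene could not be checked and the genotypes are used as labels. All mice of the first experiment, controls included, received PTU.

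Mitochondria pass electrons from NADH and succinate along the respiratory chain to oxygen, and the proton gradient made on the way drives ATP synthesis. Complex II is succinate dehydrogenase, complex III is the cytochrome bc1 complex, complex IV is cytochrome c oxidase and complex V is ATP synthase. All complex II subunits and most subunits of the other 3 are made from nuclear genes, while a few core subunits of complexes III, IV and V come from mitochondrial DNA. Brown adipocytes are rich in mitochondria and in complexes II to IV, release the gradient as heat through UCP1, and hold little ATP synthase for their respiratory capacity. Several complex IV subunits exist as isoforms, of which Cox7a1, Cox8b and Cox6a2 are those of heart and skeletal muscle, and Cox7a1 and Cox8b are also markers of brown fat.

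The files held from 7612059 to 18073627 counts per mouse, of which mitochondrial genes (mt- symbols) took 39.2% to 55.7%. Levels are given in CPM (counts scaled to a library of 1000000 counts), with TMM normalization and the 37 mt- genes left out, so that a change of mitochondrial transcripts does not shift the members. The 12 brown adipocyte markers were all above 0 in every mouse. The sum of 19 skeletal muscle markers went from 25.6 to 21326 CPM, at least 1 of them was at 0 in 26 mice, and 10 immune markers summed to between 28.8 and 343 CPM. In whole tissue, fewer cells of a type and less RNA per cell cannot be told apart. Changes were tested with the quasi-likelihood test of edgeR over all genes with a mean count above 10, adjusted by Benjamini-Hochberg and called under 0.05, and every adjusted p below is of this kind. SE is the standard error of the log2 fold change. In GENCODE, 13 members share exon bases with another gene, 11 of them with one on the other strand, and since the strand setting is not given, reads there cannot be assigned with certainty. The longest stretches were 504 bases for Uqcrc2 (with Pdzd9), 397 for Atp5j (with Gabpa), 337 for Atp5f1 and 269 for Cox5a. GENCODE lists 2 genes named Atp5o, and all 530 exon bases of one are shared with Donson or with the other on the same strand.

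The promoters of the 4 members on which the results below turn most are shown with their surroundings, since Sdhd and Atp5d are the 2 whose response to TH differed between genotypes and Cox7a1 and Cox8b are the isoforms with the largest cold response. They run from 250 bases before to 50 bases after the start, as given by RefSeq for GRCm38.p6, and are written 5′ to 3′ on the strand of the gene, with matches to the searched motifs in capitals. The Sdhd promoter is chr9:50603800-50604099 (- strand), that of Atp5d is chr10:80142025-80142324 (+ strand), that of Cox7a1 is chr7:30183921-30184220 (+ strand) and that of Cox8b is chr7:140900397-140900696 (- strand).
Sdhd: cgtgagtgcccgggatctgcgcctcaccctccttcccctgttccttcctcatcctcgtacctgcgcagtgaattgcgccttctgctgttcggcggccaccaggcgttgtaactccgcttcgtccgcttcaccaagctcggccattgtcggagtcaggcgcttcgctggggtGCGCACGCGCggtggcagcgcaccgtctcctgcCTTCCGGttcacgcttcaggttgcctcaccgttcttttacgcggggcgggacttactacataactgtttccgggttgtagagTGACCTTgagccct
Atp5d: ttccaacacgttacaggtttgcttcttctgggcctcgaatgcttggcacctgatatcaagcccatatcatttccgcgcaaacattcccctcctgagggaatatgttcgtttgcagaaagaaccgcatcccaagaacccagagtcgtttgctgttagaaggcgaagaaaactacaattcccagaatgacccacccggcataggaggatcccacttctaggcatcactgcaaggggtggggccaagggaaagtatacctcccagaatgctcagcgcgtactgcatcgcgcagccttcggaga
Cox7a1: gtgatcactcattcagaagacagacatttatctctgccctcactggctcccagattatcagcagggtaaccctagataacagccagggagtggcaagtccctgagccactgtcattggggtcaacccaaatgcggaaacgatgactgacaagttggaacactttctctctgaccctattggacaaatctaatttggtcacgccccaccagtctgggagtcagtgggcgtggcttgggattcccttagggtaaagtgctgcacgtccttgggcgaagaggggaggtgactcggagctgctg
Cox8b: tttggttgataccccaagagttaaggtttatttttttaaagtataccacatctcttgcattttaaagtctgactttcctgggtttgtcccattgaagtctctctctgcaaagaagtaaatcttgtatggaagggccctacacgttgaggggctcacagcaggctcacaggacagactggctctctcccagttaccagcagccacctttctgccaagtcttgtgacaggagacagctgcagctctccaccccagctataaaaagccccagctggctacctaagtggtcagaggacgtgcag

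The Sdhd window held a match to the NRF1 motif (GCGCA and GCGC with 1 base between), 1 to the ETS motif (CCGGAAG) bound by NRF2/GABP, and 1 to the ERR motif (AAGGTCA), the last a single hexamer of the kind read by nuclear receptors with an A before it. No match to these or to the YY1 motif (AAGATGGC) lay in the windows of Atp5d, Cox7a1 and Cox8b. RefSeq gave a promoter for 33 of the 47 members, and for 3 of them a second one, in which case the first listed was counted. Of these 33 windows, 9 (27.3%) held the NRF1 motif on either strand, against 4.60% of 32851 promoters of the same length. The ETS motif was in 11 (33.3% against 8.86%), the ERR motif in 5 (15.2% against 4.72%) and the YY1 motif in 1 (3.03% against 2.75%). With the second windows counted too, 10 members held the NRF1 motif, 12 the ETS motif and 2 the YY1 motif. A perfect DR4, the element of thyroid hormone receptors (AGGTCA repeated with 4 bases between), was in 0 of the 33 windows and in 5 of all 32851 (0.0152%). The Atp5d window lies inside the gene as GENCODE draws it, which has an earlier start. A match describes these letters in this window, and binding was not measured here. Motifs could overlap, since the ERR motif contains the AGGTCA of the DR4.

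In WT mice, TH raised a subset of the subunits, all but Atp5g1 by less than 2-fold. At 24 h, 15 of the 47 members rose and 0 fell, against 17.4% of all tested genes rising and 15.4% falling. The 15 were 1 of 4 genes of complex II, 4 of 9 of complex III, 6 of 17 of complex IV and 4 of 17 of complex V, and the median log2 fold change was 0.19 over the members and 0.01 over all genes. The share of members that rose (15 of 47) stood above the share of all genes, while their changes were small, with log2 fold changes from 0.28 to 1.01. The log2 fold change was above 0 for 35 of the 47 members, against 50.9% of all genes. Without the PTU-fed mouse B2 or B3, 8 members rose (17%, against 14.2% and 13.6% of all genes), and without the mouse B26 at 24 h, 9 (19.1%, against 15.4%), so the members' share then lay nearer that of all genes. The count of falls was 3 without the mouse B24 at 24 h (11 rose) and 1 without the PTU-fed mouse B4, in DESeq2 or in a fit of all 30 mice. In the same comparison all 19 skeletal muscle markers had a log2 fold change above 0 (median 1.07), and 1 of them, the myoglobin gene Mb, was called. Their sum was 226 to 1767 CPM under PTU and 741 to 3121 CPM at 24 h. Of the 12 brown adipocyte markers, 7 fell, among them Elovl3 (-2.26) and Adipoq (-2.13), and 2 rose, Dio2 and Ucp1, with sums of 29054 to 33250.1 and 24677 to 39559.9 CPM. Of 4 white adipocyte markers tested, Lep rose (3.11) and Retn (-0.69) and Hoxc8 (-0.59) fell, and all 5 immune markers tested were above 0, of which Cd68 was called (0.90). The part of these markers in the members' changes was not tested.

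Sdhd, which encodes a membrane anchor of complex II and lies on chromosome 9 from 50596357 to 50603812 of GRCm38 (GENCODE), was the complex II gene that rose. It was at 516, 475, 558 and 590.2 CPM in the 4 PTU-fed WT mice and at 824, 886, 858 and 784 CPM at 24 h, so every treated mouse lay above every control. Its log2 fold change was 0.26 at 6 h (adjusted p = 0.045), 0.38 at 12 h (adjusted p = 0.00321) and 0.65 (SE 0.09, adjusted p = 1.33e-05) at 24 h. Sdha, the flavoprotein that oxidizes succinate, had -0.15 (SE 0.11, adjusted p = 0.31) at 24 h, Sdhb, the iron-sulfur subunit, 0.02, and Sdhc, the other membrane anchor, 0.20. None of these 3 passed the test. Between these times, the Sdhd of the 4 mice taken 3 h after TH was 610.3, 566, 657 and 576 CPM, that of the mice at 6 h 581, 608, 702 and 690.2 CPM and that of the mice at 12 h 723, 672, 716 and 707 CPM. The mice at 12 h all lay above those under PTU and below those at 24 h.

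In complex III, Uqcrc1, a core subunit, Cyc1, the cytochrome c1 that hands electrons to cytochrome c, Uqcrh, the hinge protein, and Uqcr10, a small subunit, rose at 24 h. Uqcrc1 was at 320.2, 307, 367 and 369.6 CPM in the PTU-fed mice and at 509.6, 515, 579 and 464 CPM at 24 h, without overlap, a log2 fold change of 0.60 (SE 0.20, adjusted p = 0.0261). Cyc1 (0.35), Uqcrh (0.39) and Uqcr10 (0.31) had smaller log2 fold changes, and Uqcrfs1, the Rieske iron-sulfur protein, had -0.02 (adjusted p = 0.9).

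In complex IV, the muscle-type isoform Cox7a1, on chromosome 7 from 30184144 to 30186078, went from 307, 198, 267 and 322 CPM to 479, 572, 450.3 and 439 CPM at 24 h, a log2 fold change of 0.82 (SE 0.17, adjusted p = 0.000704). The groups did not overlap. Its ubiquitous counterpart Cox7a2 had -0.26 (adjusted p = 0.197). Cox7a2l was at 24.3, 19.9, 24.9 and 20.6 CPM under PTU, and rose early, with log2 fold changes of 0.61 at 6 h, 0.71 at 12 h and 0.71 (SE 0.13, adjusted p = 0.000231) at 24 h. Cox4i1, the isoform of the regulatory subunit 4 found in most tissues, and the subunits Cox5a and Cox5b rose by 0.37 to 0.38 on the log2 scale at 24 h. Cox8b, another muscle-type isoform, had 0.28 (SE 0.10, adjusted p = 0.0473), a call that was lost in 7 of the 8 fits without 1 mouse.

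In complex V, Atp5d, the δ subunit of the central stalk, on chromosome 10 from 80138632 to 80145818, was at 397, 370.4, 496 and 486 CPM under PTU and at 651, 736, 869 and 696 CPM at 24 h, again without overlap. Its log2 fold change was 0.35 at 12 h (adjusted p = 0.0387) and 0.75 (SE 0.12, adjusted p = 6.57e-05) at 24 h. Atp5k (0.35) and Atp5mpl (0.33), 2 small membrane subunits, rose at 24 h. The exons of Atp5d share 68 bases with Cbarp on the other strand. The catalytic subunits Atp5a1 (log2 fold change 0.06) and Atp5b (0.08) did not pass the test. Among the 3 genes of the c subunit, which form the rotating ring, Atp5g1 had 1.01 (SE 0.34, adjusted p = 0.0261) at only 2.92, 6.06, 7.45 and 5.50 CPM, and Atp5g1 has 19 near-identical copies in the annotation (at least 95% identity over at least 100 bases), so its counts are uncertain. Atp5g3, the most counted of the 3, had -0.07.

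At the earlier times fewer members rose and 0 fell. At 3 h, edgeR called 0 of 47, with 5 at an unadjusted p under 0.05 (10.6%, against 25.3% of all genes), and DESeq2 also called 0, while 4.88% of all genes rose and 4.31% fell. At 6 h, 6 members rose (12.8%, against 12.2% of all genes) and 0 fell (against 10.9%). At 12 h, 7 rose (14.9%, against 13%) and 0 fell (against 12.9%), so the shares that rose were near those of all genes and the shares that fell were below them. The 4 comparisons share the same 4 PTU-fed mice. The count at 6 h was 1 without the PTU-fed mouse B2, 2 without B3 or the mouse B15 or B17 at 6 h and 3 without B12, and that at 3 h was 2 without the PTU-fed mouse B4 and 1 without the mouse B8 at 3 h. A fall was called for 1 member at 6 h without the PTU-fed mouse B4, without the mouse B13, in DESeq2 or in a fit of all 30 mice, for 2 in a fit of the 2 groups compared, and for 1 at 12 h without the mouse B19. Without a filter on the mean count, 1 fell at each of the 3 times. In the same comparisons the 19 muscle markers were all below 0 at 3 h (median -1.91, 0 called), all above 0 at 6 h (median 1.04, 0 called) and all below 0 at 12 h (median -1.62, 1 called, Myl1). Of the 12 brown adipocyte markers, 2 rose and 1 fell at 3 h, 3 rose and 3 fell at 6 h and 2 rose and 6 fell at 12 h, and the part of these markers was not tested. Of the members called at 12 h, Cox6b2, the testis-type isoform of subunit 6b, was at 3.22, 2.81, 3.14 and 2.86 CPM under PTU and at 4.64, 5.34, 5.20 and 6.54 CPM at 12 h, a level at which a few reads weigh.

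**Figure D1:**
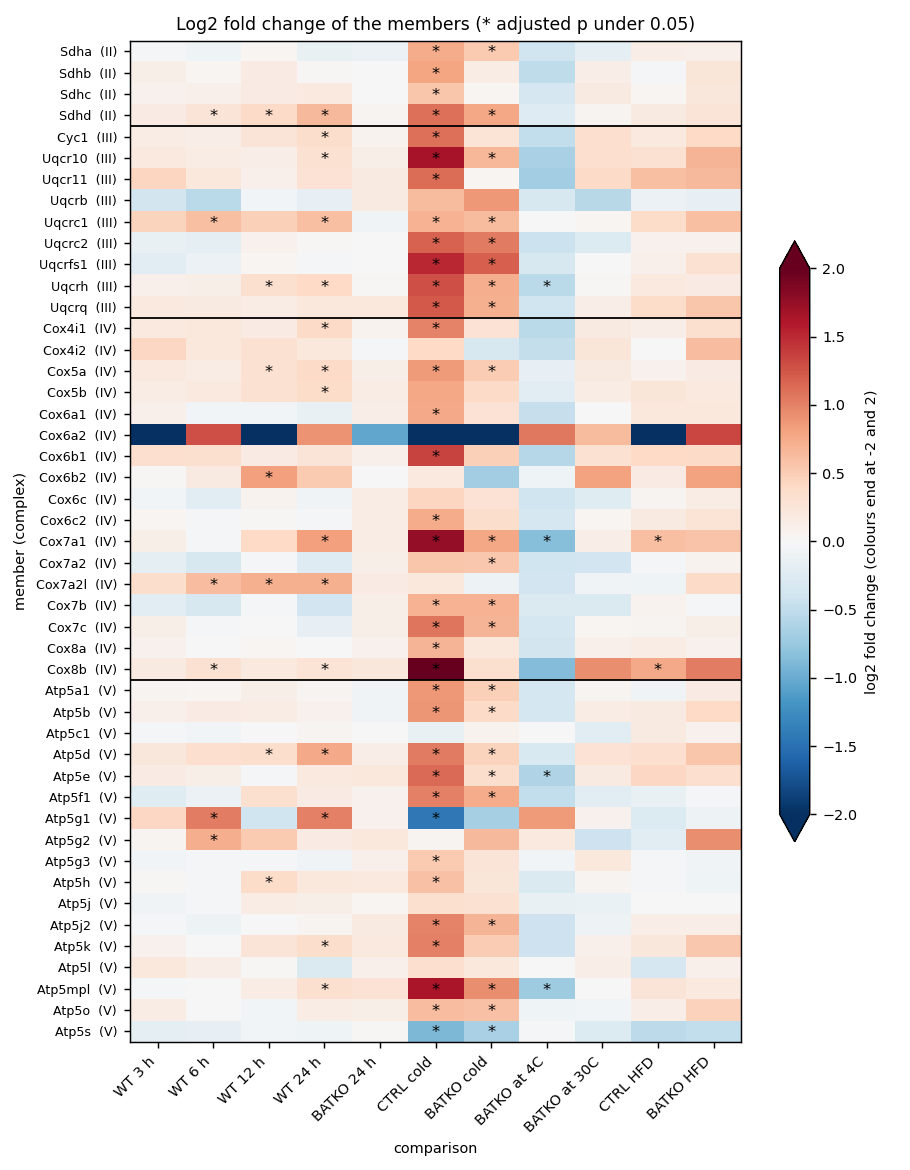
Log2 fold change of the 47 members (rows, by complex) in the comparisons of the study (columns). Colours end at ±2 and an asterisk marks an adjusted p under 0.05 in edgeR. The column of the CTRL mice in the cold holds 33 increases, and that of the BATKO mice given TH holds 0 calls.

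In BATKO mice, 24 h after TH, edgeR called 0 of the 47 members. Of these, 3 had an unadjusted p under 0.05 (6.38%, against 4.76% of all genes), and DESeq2 called 0. The test called 0% of all 14153 genes in this comparison. The log2 fold change was above 0 for 40 of the 47 members, against 47.6% of all genes, with a median of 0.11 over the members and -0.01 over all genes. Sdhd was at 471, 416, 628, 369 and 448 CPM in the 5 PTU-fed BATKO mice and at 573, 466, 509.5, 421 and 453 CPM after TH, and the groups overlapped. Atp5d was at 504, 480.1, 611, 372 and 521 CPM without and at 551, 511, 598, 487 and 579.7 CPM with TH, also overlapping. Cox7a1 was at 149, 124, 188, 101 and 143 and at 158, 119, 184, 146 and 175 CPM.

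The difference between the responses was tested as an interaction in a fit of all 30 mice. It passed for 2 members, both with a smaller response in BATKO mice, against 7.11% of all genes with a lower and 5.16% with a higher response. These were Sdhd, with a difference of -0.59 (SE 0.16, adjusted p = 0.0152) in log2 fold change, and Atp5d, with -0.62 (SE 0.18, adjusted p = 0.0195). The share of members (2 of 47) was thus not above that of all genes, and 13 had an unadjusted p under 0.05 (27.7%, against 27% of all genes). Cox7a1 had a difference of -0.68 (SE 0.24, adjusted p = 0.0621) and did not pass. The call for Atp5d was lost without WT mouse B2, B3 or B27, and that for Sdhd in a fit of the 4 groups compared (adjusted p = 0.0515). Without the PTU-fed BATKO mouse 11, 6 members passed. In the same interaction, all 19 muscle markers had a difference below 0 (median -1.87, 0 called), and 4 of the 12 brown adipocyte markers were called, all with a difference above 0 (Adipoq 2.00, Fabp4 0.97, Cidea 0.81 and Plin1 0.75). Of the white adipocyte markers, Lep was called (-2.87). In BATKO mice the muscle markers summed to 84.1 to 2478 CPM under PTU and 83.9 to 862 CPM after TH, and the part of these markers in the members' differences was not tested.

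The WT and BATKO mice of this experiment also differed before TH. The summed level of the 47 members was 34102 ± 1069 CPM (SD, n = 4) in PTU-fed WT mice and 27535 ± 3223 CPM (SD, n = 5) in PTU-fed BATKO mice, with complex IV at 13508 ± 411 and 8298 ± 786 CPM and complex V at 9516 ± 391 and 10119 ± 1225 CPM. The means of 12 members were more than 2-fold apart. In BATKO mice 5 were higher, from 2.10-fold for Uqcrc1, through Atp5l (4.13), Cox7a2l (5.53) and Cox7c (7.77), to 11.5-fold for Atp5g2, and 7 were lower, down to 0.336 of the WT level for Atp5e and 0.427 for Cox8b. Of the 5 higher ones, 4 have a near-identical copy in the annotation, against 0 of the 7 lower ones and 16 of the 46 members that could be searched. Between BATKO and CTRL mice at 30 °C, 0 of the 47 members were more than 2-fold apart, with ratios from 0.681 to 1.91. The brown adipocyte markers summed to 30987 ± 1727 CPM in WT and 21418 ± 1557 CPM in BATKO mice under PTU. The white adipocyte markers summed to 249 ± 7.78 and 80.0 ± 20.2 CPM, the endothelial markers to 606 ± 14.4 and 813 ± 30.3 CPM and the 37 assembly factors to 3543 ± 202 and 1706 ± 248 CPM. The ranges of these 3 sums did not overlap, nor did those of the brown adipocyte markers or of all members. Whether the mice of both genotypes were kept and sequenced together is not given in the sources used here, so genotype and such a difference cannot be told apart, and no test was made.

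**Figure D2:**
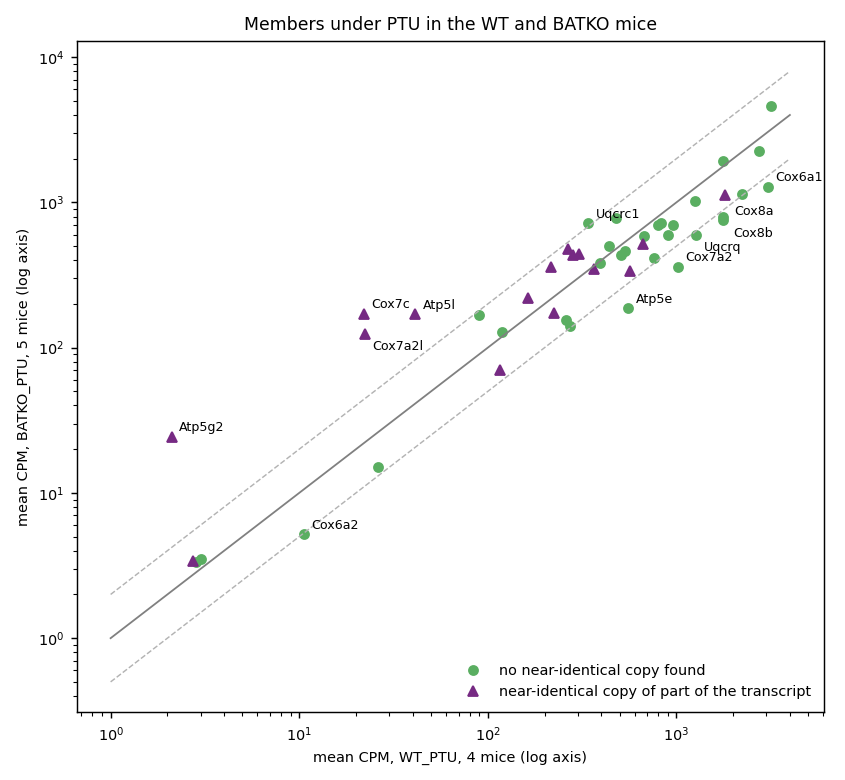
Mean CPM of the members in PTU-fed WT mice (x axis, 4 mice) and PTU-fed BATKO mice (y axis, 5 mice), both on log axes, with a line of equality and dashed lines 2-fold above and below it, and triangles for members with a near-identical copy. Named genes are the 12 more than 2-fold apart, with Atp5g2, Cox7c, Cox7a2l, Atp5l and Uqcrc1 above the upper dashed line.

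After 24 h at 4 °C, most subunits of all 4 complexes rose in CTRL mice. Of the 47 members, 33 rose and 2 fell, against 25.9% of all tested genes rising and 23.4% falling, and the median log2 fold change was 0.77 over the members and -0.03 over all genes. All 4 genes of complex II rose, 8 of 9 of complex III, 10 of 17 of complex IV and 11 of 17 of complex V, of which 2 others fell. The median log2 fold change was 0.76 in complex II, 1.19 in complex III, 0.74 in complex IV and 0.62 in complex V. The summed level of the members was 35927 ± 3362 CPM (SD, n = 4) at 30 °C and 70672 ± 8552 CPM (SD, n = 3) at 4 °C, and the ranges (31873 to 40049.9 and 61181 to 77779.5 CPM) did not overlap. As a share of the counts without mt- genes, not scaled by TMM, they took 4.02% ± 0.19% and 5.68% ± 0.47%. This rise was also without overlap, and was smaller than that in CPM. For 35 members every mouse at 4 °C lay above every mouse at 30 °C, against 26.2% of all genes, and for 1 below, against 24.5%. In the same mice, the brown adipocyte markers summed to 13479 ± 1067 CPM at 30 °C and 55201 ± 4928 CPM at 4 °C, and the muscle markers to 25.6 to 12656 and 400.4 to 1683 CPM. The brown adipocyte markers did not all rise. Elovl3 (10.3), Ucp1 (4.40), Dio2 (3.83) and Plin5 (2.27) had the largest rises, and Adipoq (-1.09) and Ebf2 (-0.73) fell. Of the endothelial markers, Kdr rose (1.12) and Tek fell (-0.52). All 19 muscle markers and all 5 immune markers tested had a log2 fold change below 0, with 0 and 2 called, and of 4 white adipocyte markers Lep (-4.92) and Nnat (-4.33) fell. Without the 4 libraries of this experiment with muscle markers above 5000 CPM, all at 30 °C, 29 members rose and 2 fell. The share of all genes in that fit is not given.

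**Figure D3:**
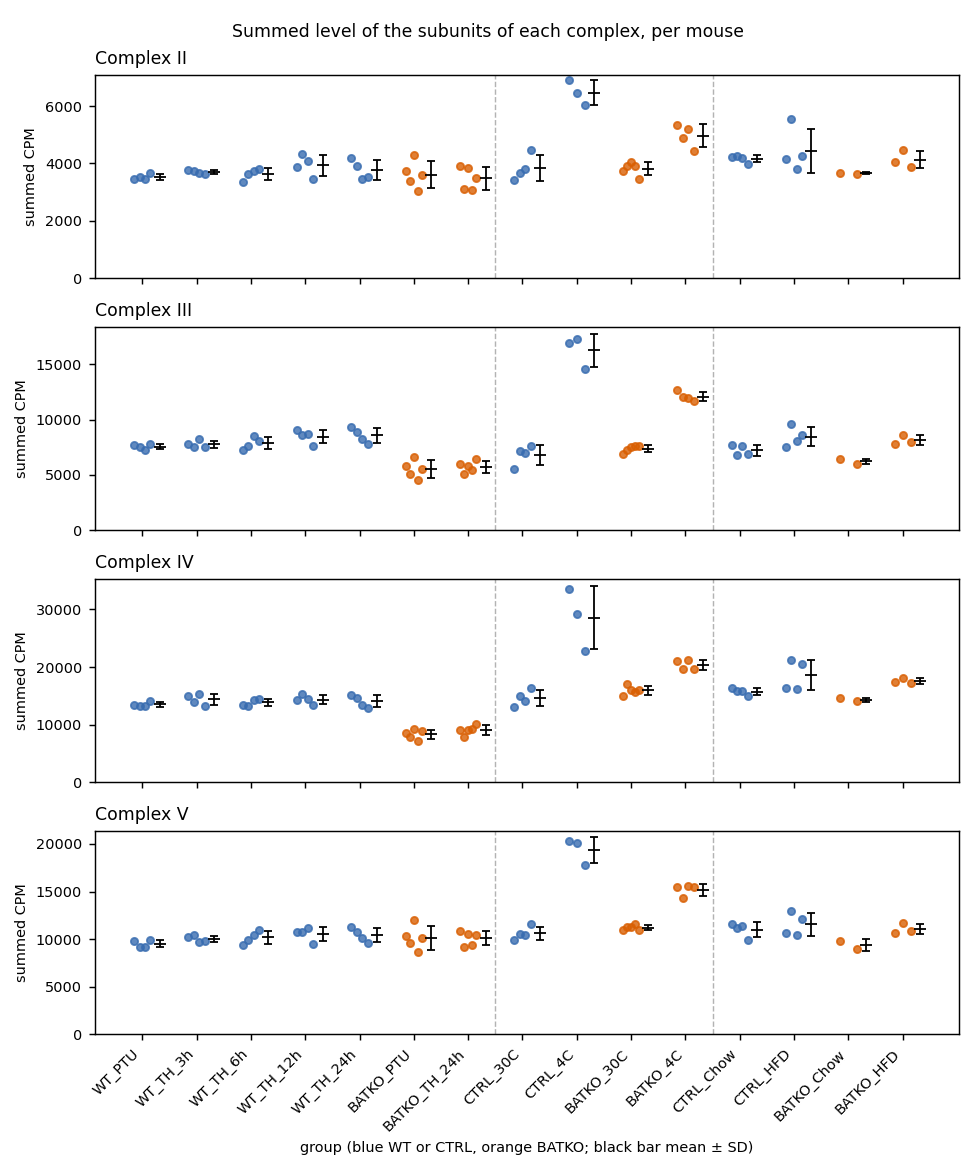
Summed CPM of the subunits of complexes II, III, IV and V (panels) in every mouse (points), by group (x axis), with mean ± SD as black bars. In CTRL mice complex III went from 6819.7 ± 892 CPM at 30 °C to 16269 ± 1495 CPM at 4 °C, and complex V from 10610.2 ± 701 to 19399 ± 1379.8 CPM.

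Within complex II, Sdhd went from 387, 509, 495 and 516 CPM in the 4 CTRL mice at 30 °C to 1221, 961 and 876 CPM in the 3 at 4 °C, a log2 fold change of 1.10 (SE 0.17, adjusted p = 6.98e-05). Sdha had 0.74, Sdhb 0.79 and Sdhc 0.56. The groups did not overlap for any of these 4 genes.

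In complex III, Uqcrfs1, on chromosome 13 from 30540308 to 30545362, was at 1051, 1314, 1344 and 1474 CPM at 30 °C and at 3824, 3584 and 3589 CPM at 4 °C. Its log2 fold change was 1.50 (SE 0.14, adjusted p = 6.51e-07). Uqcr10, on chromosome 11 from 4701973 to 4704342, rose from 455, 597, 537 and 584 CPM to 2228, 1724 and 1136 CPM, a log2 fold change of 1.64 (SE 0.19, adjusted p = 4.59e-06). The treated mice differed among themselves more for Uqcr10 than for Uqcrfs1, and all lay above the mice at 30 °C. Cyc1 rose from 1178, 1542, 1379 and 1555 CPM to 3706, 3016 and 2339 CPM, with 1.10 (SE 0.16, adjusted p = 4.75e-05). Uqcrh, which helps cytochrome c1 bind cytochrome c, had 1.29 (SE 0.13, adjusted p = 8.18e-07), and its cold mice all lay above those at 30 °C. The core subunits Uqcrc2 (1.19) and Uqcrc1 (0.70) and the small subunits Uqcrq (1.23) and Uqcr11 (1.11) completed the log2 fold changes that passed. Uqcrb, which has a near-identical copy, was the 1 gene of the complex not called (0.64, adjusted p = 0.383).

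In complex IV, the muscle-type isoforms Cox8b and Cox7a1 had the largest rises. Cox8b, on chromosome 7 from 140898945 to 140900446, was at 510.2, 1068, 1055 and 1361 CPM at 30 °C and at 6338, 4068 and 2585 CPM at 4 °C, a log2 fold change of 2.12 (SE 0.32, adjusted p = 5.14e-05). Cox7a1 went from 138, 218, 247 and 258 CPM to 688, 749 and 747 CPM, a log2 fold change of 1.76 (SE 0.19, adjusted p = 1.98e-06). Both were without overlap, and the 3 cold mice were close together for Cox7a1 and spread over more than 2-fold for Cox8b. The ubiquitous counterparts changed less, with a log2 fold change of 0.68 (SE 0.14, adjusted p = 0.000725) for Cox8a and 0.55 (SE 0.23, adjusted p = 0.0607) for Cox7a2. Cox6b1, which links the monomers of the dimeric enzyme, had 1.35 (SE 0.22, adjusted p = 8.61e-05), and Cox4i1 1.00. Cox4i1 was at 1968, 2168, 1954 and 2079 CPM at 30 °C and at 5546, 3937 and 2769 CPM at 4 °C. The log2 fold changes of the other genes that rose were 1.07 for Cox7c, 0.85 for Cox5a, 0.75 for Cox6a1, 0.74 for Cox6c2, the annotated pseudogene, and 0.70 for Cox7b. Cox5b had 0.77 (adjusted p = 0.0625), a change as large as some that passed, with a wider spread between mice. The minor isoforms Cox4i2 (0.40) and Cox6b2 (0.20) did not pass the test. Cox6a2, the muscle isoform of subunit 6a, was at 0, 35.6, 107 and 0.375 CPM at 30 °C and at 1.35, 4.07 and 14.0 CPM at 4 °C and was called in none of the comparisons. Its log2 fold change was -2.43 (SE 1.86, adjusted p = 0.288), the lowest of the complex. The 2 CTRL mice at 30 °C with the highest Cox6a2 had muscle marker sums of 5128 and 12656 CPM, and the other 2 had 25.6 and 149.7 CPM.

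In complex V, the catalytic β subunit Atp5b had 0.89 (SE 0.12, adjusted p = 1.82e-05) and the α subunit Atp5a1 0.87. The largest rise was that of Atp5mpl, a small membrane subunit, from 74.3, 95.8, 101 and 116 CPM to 347, 310.0 and 246 CPM, a log2 fold change of 1.64 (SE 0.15, adjusted p = 3.4e-07). Atp5e, the ε subunit of the central stalk, went from 595, 665, 620.0 and 637 CPM to 1457, 1583 and 1086 CPM, with 1.13 (SE 0.14, adjusted p = 7.34e-06), and Atp5d, its neighbour in the stalk, had 1.04 (SE 0.18, adjusted p = 0.000156). For Atp5d the mice were at 537, 629, 573 and 599.5 CPM at 30 °C and at 1454, 1235 and 929.6 CPM at 4 °C. Among the genes of the peripheral stalk, Atp5f1 (subunit b) had 1.01, Atp5h (subunit d) 0.59 and Atp5o (OSCP) 0.62, all past the test, and Atp5j (coupling factor 6) 0.32, which was not (adjusted p = 0.0632). Atp5c1, the γ subunit that turns within the catalytic head, had -0.14 (SE 0.28, adjusted p = 0.689), so the genes of the central stalk did not all pass. Of the small membrane subunits, Atp5k (1.01) and Atp5j2 (0.99) rose and Atp5l had 0.34 (adjusted p = 0.113). The 2 genes that fell were Atp5s, at 36.0, 44.7, 42.5 and 46.3 CPM and 18.0, 25.6 and 24.6 CPM, a log2 fold change of -0.90 (SE 0.16, adjusted p = 0.00028), and Atp5g1, with -1.42 (SE 0.48, adjusted p = 0.0214). The caution on copies holds for Atp5g1, which was at 23.9, 14.4, 18.5 and 5.06 CPM at 30 °C, a wide spread, and at 5.62, 7.42 and 4.34 CPM at 4 °C. Atp5g3 had 0.52, and Atp5g2 0.05 (adjusted p = 0.919).

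**Figure D4:**
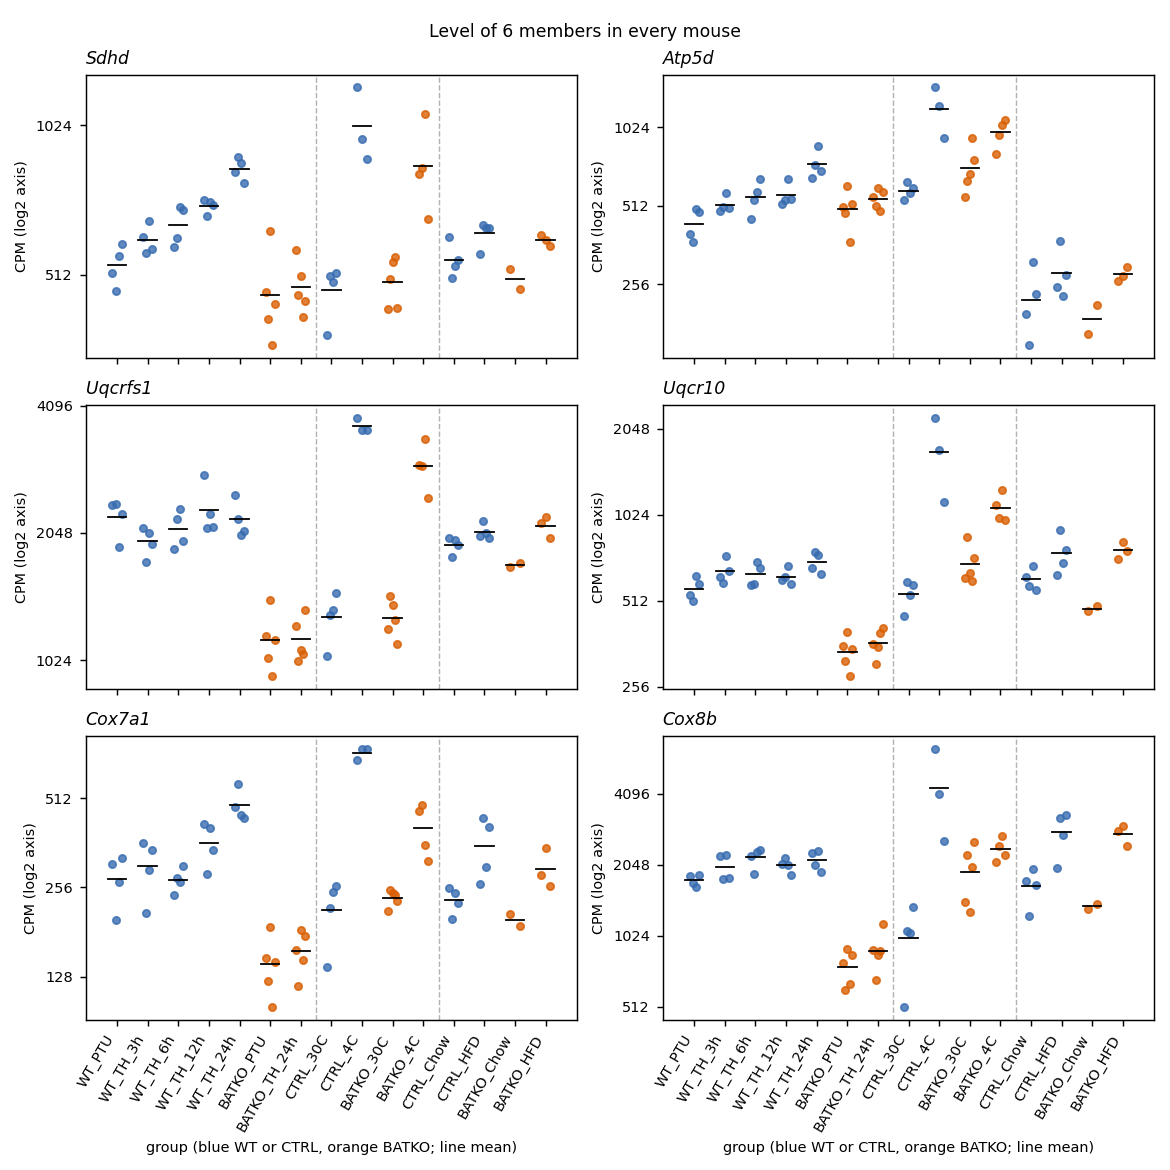
CPM of 6 members (panels, log2 axes) in every mouse (points), by group (x axis), with the mean as a line. Sdhd and Atp5d are higher in WT mice 24 h after TH than under PTU, and Cox7a1 and Cox8b reach their highest levels in CTRL mice at 4 °C.

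In BATKO mice, cold raised 21 of the 47 members and lowered 1, against 20.9% and 19.3% of all genes, with a median log2 fold change of 0.39 over the members. Of the genes that rose, 2 were of complex II, 6 of complex III, 5 of complex IV and 8 of complex V. The sum of the members went from 38348 ± 1106 CPM (SD, n = 5) to 52592 ± 1913 CPM (SD, n = 4), without overlap. As a share of the counts without mt- genes, not scaled by TMM, it went from 4.28% ± 0.18% to 4.81% ± 0.22%. The ranges of this share (4.12% to 4.58% and 4.49% to 4.98%) overlapped. Uqcrfs1 had the largest rise, from 1214, 1456, 1385, 1276 and 1119.8 CPM to 2958, 2949.6, 3407 and 2474 CPM, a log2 fold change of 1.19 (SE 0.13, adjusted p = 3.44e-06). Sdhd was at 438, 503, 543, 557 and 438 CPM at 30 °C and at 815, 841, 1081 and 663 CPM at 4 °C, a log2 fold change of 0.78 (SE 0.15, adjusted p = 0.0007). Atp5mpl was at 96.6, 99.0, 105, 89.4 and 90.8 CPM at 30 °C and at 196, 182, 190.4 and 166 CPM at 4 °C, with 0.93 (SE 0.13, adjusted p = 3.77e-05), and Uqcr10 at 617, 854, 642, 599.8 and 721 and 1107, 997, 1249 and 985 CPM, with 0.66 (SE 0.17, adjusted p = 0.00558). Both rose without overlap. The catalytic subunits Atp5b (0.39) and Atp5a1 (0.47), the core subunit Uqcrc2 (1.04) and Cox7c (0.68) also rose. Cyc1 (0.27, adjusted p = 0.153) and Cox4i1 (0.28, adjusted p = 0.169) did not pass. In these mice 9 of the 12 brown adipocyte markers rose, with sums of 12142 to 14507 CPM at 30 °C and 34228 to 50884 CPM at 4 °C. All 19 muscle markers had a log2 fold change below 0 (median -1.77, 0 called), with sums of 38.0 to 21326 and 46.7 to 4372 CPM, and of 4 white adipocyte markers Lep (-3.03) and Nnat (-3.23) fell. Without the libraries high in muscle markers, 14 members rose and 2 fell, with the share of all genes not given. Atp5s fell in these mice too, with -0.65 (SE 0.14, adjusted p = 0.00181).

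Of the muscle-type isoforms of complex IV, Cox7a1 passed the test in BATKO mice and Cox8b and Cox6a2 did not, and the differences between these genes were not tested. Cox7a1 went from 213, 251, 245, 241 and 231 CPM to 463, 487, 356 and 314 CPM, a log2 fold change of 0.78 (SE 0.17, adjusted p = 0.00149). Cox8b was at 1423, 2247, 1291, 2003 and 2558 CPM at 30 °C and at 2103, 2453, 2716 and 2246 CPM at 4 °C, with overlap and a log2 fold change of 0.32 (SE 0.28, adjusted p = 0.375). Uqcr11, a small subunit of complex III, was at 315, 384, 327, 351 and 391 and 399, 404, 259 and 392 CPM in BATKO mice, against 261, 319, 255 and 250.2 and 796, 605 and 357 CPM in CTRL mice. Sdhb (0.15) and Sdhc (0.03) did not pass the test in BATKO mice, whereas Sdha had 0.52 (adjusted p = 0.00668). In all, 20 members rose in both genotypes, 13 passed the test for a rise in CTRL mice alone and 1, Cox7a2, in BATKO mice alone. Of all genes, 25.9% rose in CTRL mice and 20.9% in BATKO mice, with 17% rising in both. These counts do not show a difference between genotypes, which was tested separately.

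The difference between the cold responses, tested as an interaction, passed for 0 of the 47 members in edgeR (0.324% of all genes with a higher and 0.754% with a lower response in BATKO mice). At an unadjusted p under 0.05 there were 19 members (40.4%, against 18.8% of all genes). DESeq2 called 11, all with a smaller response in BATKO mice. The difference was below 0 for 41 members, with a median of -0.38. The counts of DESeq2, of signs and of the other fits in this paragraph are given without the shares of all genes. In the same interaction all 5 immune markers tested (median 0.95) and all 4 white adipocyte markers tested (median 0.97) had a difference above 0. So had 17 of 19 muscle markers (median 0.43), while 9 of 12 brown adipocyte markers had one below 0 (median -0.35). In each of these lists 0 were called. Of the endothelial markers, Kdr was called, with a difference of -1.04 (SE 0.20, adjusted p = 0.0245). The part of all these markers was not tested. Among the members, the nearest to the threshold were Cox8b, with a difference of -1.80 (SE 0.42, adjusted p = 0.0514), and Atp5e, with -0.78 (SE 0.19, adjusted p = 0.0531). At 30 °C the mean of Cox8b in BATKO mice was 1.91 times that in CTRL mice. This was the highest such ratio of the members, did not pass the test, and enters the difference. Without the CTRL mouse 5 at 4 °C, edgeR called 11 members, without the BATKO mouse 13 at 30 °C 2, without the BATKO mouse 14 or 15 or the CTRL mouse 22 at 30 °C 1, and with the size factors of DESeq2 (RLE) in place of TMM it called 2. That mouse had the lowest Cox8b (2585 CPM), Uqcr10 and Uqcr11 among the 3 cold CTRL mice.

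**Figure D5:**
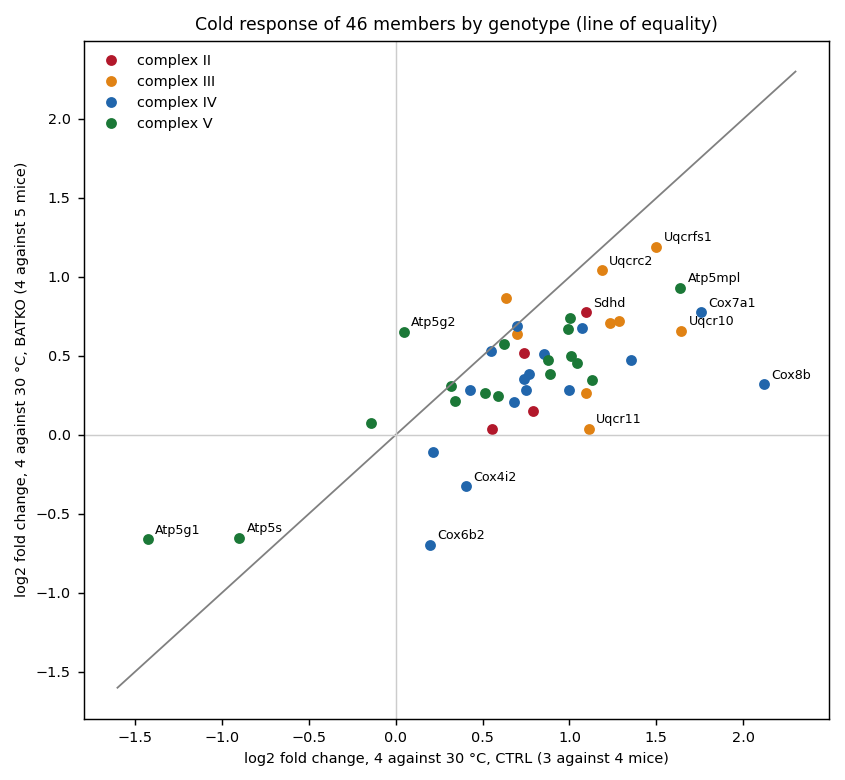
Log2 fold change of 46 members between 4 °C and 30 °C in CTRL mice (x axis, 3 against 4 mice) and BATKO mice (y axis, 4 against 5 mice), with the line of equal change. Of all 47 members 41 had the larger change in CTRL mice, and Cox8b lies farthest below the line. Cox6a2 is left out of the plot.

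At 4 °C itself, 4 members were lower in BATKO than in CTRL mice and 0 higher, against 1.44% of all genes lower and 0.936% higher. They were Cox7a1 (463, 487, 356 and 314 CPM against 688, 749 and 747 CPM), with a log2 difference of -0.85 (SE 0.19, adjusted p = 0.0278), Atp5mpl with -0.71 (SE 0.14, adjusted p = 0.0204), Atp5e with -0.60 (SE 0.14, adjusted p = 0.0334) and Uqcrh with -0.55 (SE 0.13, adjusted p = 0.0334). The groups did not overlap for any of the 4. The log2 difference was below 0 for 43 of 47 members (median -0.35), and 22 had an unadjusted p under 0.05 (46.8%, against 17.1% of all genes). In the same comparison all 19 muscle markers were higher in BATKO mice (median log2 difference 1.39, 0 called), with sums of 400.4 to 1683 CPM in CTRL and 46.7 to 4372 CPM in BATKO mice. All 4 white adipocyte markers tested were higher too, of which Lep, the leptin gene, was called (2.26 (SE 0.52, adjusted p = 0.0334)). The brown adipocyte markers, 0 of them called, summed to 49569.5 to 58723 CPM in CTRL and 34228 to 50884 CPM in BATKO mice. Of the endothelial markers, Kdr was called lower in BATKO mice, with -0.87 (SE 0.15, adjusted p = 0.00987). The part of these markers in the members' differences was not tested. The calls of the members rest on few mice. Without the CTRL mouse 1 or 2 or the BATKO mouse 12, 0 members passed, without the BATKO mouse 7, 8 or 11, 2 passed, and without the CTRL mouse 5, 11 passed. A fit of the 2 groups alone called 0 and DESeq2 10. The counts of signs, of DESeq2 and of these other fits are given without the shares of all genes. At 30 °C, edgeR called 0 members (0.00754% of all genes higher, 0% lower), with 3 at an unadjusted p under 0.05 (6.38%, against 8.34% of all genes), and DESeq2 called 0. The BATKO effects at 4 °C and 30 °C and the cold responses share mice with each other.

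The muscle-type isoforms can also be set against their ubiquitous counterparts within each mouse, as the log2 ratio of CPM (with 1 CPM added). Since CPM is not per length, only changes of these ratios are compared. Cox7a1 over Cox7a2 went from -2.22 ± 0.30 (mean ± SD, n = 4) at 30 °C to -0.96 ± 0.30 (n = 3) at 4 °C in CTRL mice, from -1.65 ± 0.38 to -1.41 ± 0.32 in BATKO mice, and from -1.91 ± 0.37 under PTU to -0.80 ± 0.27 24 h after TH in WT mice. In the cold, Cox8b over Cox8a went from -1.22 ± 0.60 to 0.22 ± 0.51 in CTRL mice and from -0.35 ± 0.45 to -0.20 ± 0.19 in BATKO mice. On HFD it went from 0.03 ± 0.29 to 0.65 ± 0.16 in CTRL mice and from -0.15 ± 0.18 to 0.77 ± 0.20 in BATKO mice. Cox7a1 over Cox7a2 was -1.37 ± 0.25 under PTU and -1.33 ± 0.16 24 h after TH in BATKO mice. On HFD it went from -2.06 ± 0.24 to -1.44 ± 0.36 in CTRL mice and from -2.06 ± 0.08 to -1.58 ± 0.20 in BATKO mice. Its shift exceeded the SD in CTRL mice in the cold, in WT mice after TH and on HFD in both genotypes. In BATKO mice in the cold and after TH the shift was smaller than the SD. Cox6a2 over Cox6a1 went from -8.47 ± 1.44 to -7.13 ± 0.64 24 h after TH in WT mice, and the other way in CTRL mice, from -8.79 ± 3.47 to -10.14 ± 1.62 in the cold and from -9.52 ± 2.03 to -11.29 ± 1.06 on HFD, shifts all smaller than the larger SD of each pair of groups. These ratios are a description, without a test.

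After 3.5 days of HFD, Cox8b and Cox7a1 were the members that rose in CTRL mice, and 0 fell (1.81% and 2.12% of all genes). Cox8b was at 1755, 1244, 1966 and 1687 CPM on chow and at 1981, 3228, 2741 and 3331 CPM on HFD, a log2 fold change of 0.76 (SE 0.16, adjusted p = 0.0206), and each HFD mouse lay above each chow mouse. Cox7a1 went from 256, 201, 245 and 227 CPM to 264, 437, 299.5 and 408 CPM, also without overlap, with 0.60 (SE 0.16, adjusted p = 0.0451). The median log2 fold change of the members was 0.13, and 9 had an unadjusted p under 0.05 (19.1%, against 21.5% of all genes). All 19 muscle markers had a log2 fold change below 0 on HFD (median -2.63, 0 called), with sums of 44.7 to 5921 CPM on chow and 38.2 to 1415 CPM on HFD. All 6 immune markers tested were above 0 (median 0.76, 0 called), with sums of 85.6 to 93.4 and 115 to 343 CPM. Of the 12 brown adipocyte markers, 3 rose, Adrb3 (1.21), Prdm16 (0.94) and Pparg (0.41), and 0 fell, and their sums of 15565 to 18608 and 18692 to 21668 CPM did not overlap. The call for Cox7a1 was lost in 7 and that for Cox8b in 3 of the 8 fits without 1 mouse, neither passed in a fit of the 2 groups alone, and Cox7a1 did not pass without the library high in muscle markers. The count was 0 without the chow mouse 2 or 4 or the HFD mouse 11, 1 without the chow mouse 1 or the HFD mouse 9 or 10, and 5 without the HFD mouse 7, and DESeq2 called 4 and a fit without a filter on the mean count 6. The part of the immune and brown adipocyte markers was not tested. Among the other isoforms of complex IV, Cox8a had 0.15 and Cox7a2 -0.04.

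In BATKO mice, with 3 on HFD and 2 on chow, edgeR called 0 members (0.031% of all genes rose and 0.0387% fell), 16 had an unadjusted p under 0.05 (34%, against 15.5% of all genes), and DESeq2 called 3. The log2 fold change was above 0 for 39 of 47 members, with a median of 0.22. The counts of signs and of DESeq2 are given without the share of all genes. In the same mice the brown adipocyte markers summed to 17571 to 20318 CPM on chow and 21697 to 25501 CPM on HFD, with Prdm16 called (1.61). The immune markers summed to 217 to 277 and 80.9 to 193 CPM. Both sums were without overlap, and the part of these markers was not tested. Cox8b was at 1332 and 1396 CPM on chow and at 2833, 2986 and 2461 CPM on HFD, with 1.02 (SE 0.21, adjusted p = 0.0815). Between BATKO and CTRL mice, edgeR and DESeq2 each called 0 members on HFD (0% of all genes) and 0 on chow (0%), with 0 and 2 members at an unadjusted p under 0.05 (against 5.43% and 8.14% of all genes). The interaction of diet and genotype gave 0 members by both tools (0% of all genes), with 1 at an unadjusted p under 0.05 (against 5.95%). The comparisons that use BATKO mice on chow rest on only 2 mice in that group, and their precision was not measured.

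Across the experiments, which share no mice, 12 members rose both 24 h after TH in WT mice and in the cold in CTRL mice, which is 12 of the 15 that rose after TH and 12 of the 33 that rose in the cold. Of all genes tested in both, 8.42% rose in both. Sdhd, Uqcrc1, Uqcrh, Uqcr10, Cyc1, Cox4i1, Cox5a, Cox7a1, Cox8b, Atp5d, Atp5k and Atp5mpl were these genes. The cold changes were larger for every one of them, for example 1.64 against 0.31 for Uqcr10, where the values come from separate fits and their difference was not tested. Atp5g1 rose after TH and fell in the cold.

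Other genes of the pathway are given from lists of assembly factors, regulators and partners. Of 37 factors that assemble these complexes, 16 rose and 0 fell 24 h after TH in WT mice, against 17.4% and 15.4% of all genes. In the cold, 32 rose and 1 fell in CTRL mice, against 25.9% and 23.4%, and 25 rose and 1 fell in BATKO mice, against 20.9% and 19.3%. Sco2, a copper chaperone of complex IV, had 1.24 (SE 0.18, adjusted p = 2.65e-05) after TH, and Cox10, which acts in the synthesis of the heme of complex IV, had 1.12 (SE 0.10, adjusted p = 3.74e-08) after TH and 2.19 (SE 0.17, adjusted p = 9.44e-08) in the cold in CTRL mice. The response to TH was smaller in BATKO mice for 11 of the 37 by the interaction test, against 7.11% of all genes, among them Cmc2 with -1.16 (SE 0.22, adjusted p = 0.000807). Of 15 transcriptional regulators of mitochondrial genes, 7 rose and 1 fell 24 h after TH in WT mice, against 17.4% and 15.4% of all genes, and 8 rose and 2 fell in the cold in CTRL mice, against 25.9% and 23.4%. Perm1, a regulator of oxidative metabolism in muscle, had 2.21 (SE 0.28, adjusted p = 3.88e-06) after TH and 3.12 (SE 0.43, adjusted p = 2.34e-05) in the cold. Ppargc1a, the coactivator PGC-1α, had 2.56 (SE 0.34, adjusted p = 1.62e-05) in the cold in CTRL mice, 1.18 (SE 0.30, adjusted p = 0.00503) in BATKO mice, and was lower in BATKO than in CTRL mice at 4 °C, with -1.66 (SE 0.34, adjusted p = 0.02).

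The 6 mitochondrially encoded subunits of complexes III, IV and V did not sum to more in the cold in CTRL mice, unlike the nuclear ones. Scaled by the counts of the other genes, they summed to 442988 ± 68295 CPM (SD, n = 4) at 30 °C and 400056 ± 95345 CPM (SD, n = 3) at 4 °C. In BATKO mice they summed to 379507 ± 92286 and 396389 ± 83445, and the ranges overlapped in both genotypes. In WT mice they summed to 403759 ± 34507 under PTU and 321986 ± 75522 24 h after TH. All 37 mt- genes, those of complex I included, took 49.1% ± 3.87% of all counts at 30 °C and 52.0% ± 4.89% at 4 °C in CTRL mice. In BATKO mice they took 45.5% ± 5.28% and 48.6% ± 3.89%. These shares are not scaled by TMM, and their ranges overlapped in both genotypes. Cycs, the cytochrome c that carries electrons from complex III to IV, rose in the cold in CTRL mice, with 1.97 (SE 0.26, adjusted p = 1.32e-05). Atpif1, the inhibitor of ATP synthase, fell in the cold, with -0.93 (SE 0.24, adjusted p = 0.00502), and 24 h after TH, with -0.41 (SE 0.15, adjusted p = 0.0461).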

How the data were processed

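RNA-seq counts of the BAT of 59 mice were used. The authors mapped the reads to the mouse genome (mm10, Bowtie2 per the submitters' processing notes), removed reads with a mapping quality under 10, counted reads per gene with htseq-count and deposited raw counts. The annotation and the strand setting are not given in the sources used here, so reads of overlapping genes cannot be told apart. Every column could be assigned to a mouse from its label.

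From the counts, mt- genes were removed, then library sizes and TMM factors were computed and genes with a mean normalized count above 10 tested with the quasi-likelihood test of edgeR (version 4.0.16, R 4.3.3), with Benjamini-Hochberg adjustment over all tested genes and a threshold of 0.05. WT time points were fitted with the 20 WT mice, the other TH comparisons with all 30 mice, and temperature and diet each with all their mice. No library was a copy of another of its group. The test was checked on simulated data, with 100 randomly drawn genes changed by each of the sizes below. A log2 change of 1 was recovered in 79% of them for WT mice and 77% for BATKO mice at 24 h after TH. It was recovered in 60% for HFD and 37% for cold in CTRL mice, and in 36% for BATKO against CTRL mice at 4 °C. A change of 0.5 was recovered in 21%, 26%, 10%, 2% and 6%, in the same order. A member not called may thus have changed by such amounts. Alternatives were DESeq2 (version 1.42.0), RLE size factors, mt- genes kept, no filter or a mean above 50, fits of the groups compared, each mouse left out and, for the WT time course, all 30 mice. Leaving out the 5 libraries with skeletal muscle markers above 5000 CPM was chosen after the data were seen. The members and lists were chosen with earlier results of these data known. The genes named are those with the largest changes among members past the threshold, the complex II genes and the isoform pairs in each comparison, and others were named after their values were seen. Positions come from GENCODE vM21 for GRCm38. Where nothing says that mice were treated separately, p-values measure the spread between these mice.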

Additional observations from a re-analysis of the deposited data

Results flagged for a closer look

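Of 216 sets of values, each a member or complex in a group of 4 or 5 mice, 7 held a mouse far from the others of its group by Dixon's criterion, and chance marks about 1 in 20 such groups. The WT mouse B9 at 3 h after TH had Atp5mpl at 137 CPM, with the next at 115 CPM, and the WT mouse B8 of the same group had Uqcrc1 at 662 CPM, with the next at 419 CPM. Cox6a2 was at 19.5 CPM in the PTU-fed BATKO mouse 3 (next 5.53 CPM) and at 4.79 CPM in the CTRL mouse 9 on HFD (next 0.211 CPM). Sdhd was lowest, at 387 CPM, in the CTRL mouse 19 at 30 °C (next 495 CPM) and at 565 CPM in the CTRL mouse 7 on HFD (next 635 CPM). The complex V sum was lowest, at 14275 CPM, in the BATKO mouse 8 at 4 °C (next 15432 CPM).

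The response to TH differed between WT and BATKO mice for Atp5d by -0.62 in log2 fold change (adjusted p = 0.0195, edgeR) and for Sdhd by -0.59 (adjusted p = 0.0152, edgeR).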

How the results depend on the processing

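Each comparison was repeated under the alternatives, and no member named changed the direction of a called change. Of 2790 values of named members with a single mouse left out, 81 lost and 30 gained a call, and of 1999 under the other alternatives, 32 lost and 27 gained one. The cause of the changes below was not tested. The number of members called, given without the share of all genes, changed by more than 1.5 times as follows. Without a filter on the mean count it was 1 at 3 h after TH, 2 for BATKO against CTRL mice at 4 °C, 1 for the interaction of cold and genotype, 6 for HFD in CTRL mice and 2 for HFD in BATKO mice. With DESeq2 these last 4 were 10, 11, 4 and 3. In fits of the groups compared, there were 0 at 4 °C, 0 for HFD in CTRL mice and 1 in BATKO mice. For the interaction in the cold, RLE size factors and a mean count above 50 each gave 2. Without the libraries high in muscle markers, 0 were called at 4 °C, where no mouse was left out, since all those of this experiment were at 30 °C and entered through the shared estimate of the spread.

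With a single mouse left out, the counts went from 0 to 2 at 3 h after TH, from 1 to 7 at 6 h, from 5 to 9 at 12 h, from 8 to 16 at 24 h, from 1 to 6 for the interaction of TH and genotype, from 32 to 36 for cold in CTRL mice, from 18 to 23 for cold in BATKO mice, from 0 to 11 at 4 °C, from 0 to 11 for the interaction in the cold, and from 0 to 5 for HFD in CTRL mice. For TH in BATKO mice, BATKO mice at 30 °C and the other diet comparisons they stayed at 0. No paired analysis was possible because the groups compared share no mouse numbers that mark the same animal. Depth limits Atp5g1, Atp5g2, Cox4i2 and Cox6b2, with mean raw counts of 26.8 to 47.9, and 16 members share near-identical sequence with other loci.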
